A study of Mus musculus with 8 samples.

Results

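The comparison set macrophages stimulated for 4 h with interferon gamma (IFNg, 100 ng/ml) against macrophages stimulated for 4 h with interleukin 4 (IL4, 10 ng/ml), the agents of classical and of alternative activation. The cells were bone marrow-derived macrophages, that is, C57BL/6 mouse marrow cells cultured to day 7 in medium conditioned by L929 fibroblasts, which supply the growth factor CSF1. Every stimulated culture of the series, and the untreated one, shared that strain, that medium and that day. Poly(A) RNA was sequenced from 1 library per group, so no difference below has a replicate check, and the 2 cytokines were given at different concentrations. The series holds 8 libraries in all: IFNg, IL4, 5 further stimuli for 4 h (TNFa at 10 ng/ml, TGFb1 at 1 ng/ml, IL1b at 10 ng/ml, the lipopeptide MALP2 at 1 ng/ml and CpG DNA at 100 nM) and untreated cells. The IFNg and IL4 values came from separate tables, which were joined through the untreated library that both hold. Of 36806 gene lines, 36433 carried the status OK in both tables and made up the comparison, and 12710 of these reached 1 FPKM (fragments per kilobase of transcript and of library depth) in the IFNg or the IL4 library. A gene is called higher in a library when it was at least 2-fold higher there on the FPKM + 1 scale, and every fold and log2 difference below is on that scale, which understates the differences of genes with low FPKM.

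IFNg is made by T cells and NK cells. Its receptor pair Ifngr1 and Ifngr2 acts through the kinases Jak1 and Jak2 and raises Irf1, a factor that binds the interferon-stimulated response element (ISRE). The gamma-activated sequence (GAS) is the other DNA site known for responses to IFNg. IL4 is made by type 2 helper T cells, mast cells, basophils and eosinophils. In macrophages its receptor pairs Il4ra with Il2rg or Il13ra1 and acts through Jak1, Jak3 and Tyk2 on Stat6, which favours a GAS-like site with a longer spacer. Macrophages exposed to IFNg are known for killing intracellular microbes and for antigen presentation, and those exposed to IL4 for arginase, lectins and roles in worm infection and tissue repair.

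The start-site regions of 5 genes that stood far apart show these letters, and they are printed because Cxcl10, Gbp2b and Tgtp2 were among the genes highest after IFNg and Retnla and Tmem26 among those highest after IL4, and because each holds a match. Others as far apart hold none: the regions of Cxcl9 and Upp1 on the IFNg side, and of Il4i1, Tmem273, Msx3, Tuba8 and Map3k12 on the IL4 side, had no match. Matches also fell the other way, with a STAT6-type match at 1 start of Gbp3 and an ISRE match at starts of Dhrs3. Each sequence is the 250 bases before the annotated start of the gene in RefSeq (build GRCm38.p6, whose coordinates differ from the mm9 coordinates of the deposited tables), read 5′ to 3′ on the strand of the gene. Capitals mark a match to GAS (TTCNNNGAA), to the STAT6-type site (TTCNNNNGAA) or to ISRE (GAAANNGAAA or its reverse complement TTTCNNTTTC); the first 2 read the same on both strands. The regions are chr5:92348890-92349139 on the minus strand for Cxcl10, chr3:142594597-142594846 on the plus strand for Gbp2b, chr11:49064213-49064462 on the minus strand for Tgtp2, chr16:48842359-48842608 on the plus strand for Retnla and chr10:68723496-68723745 on the plus strand for Tmem26.
Cxcl10: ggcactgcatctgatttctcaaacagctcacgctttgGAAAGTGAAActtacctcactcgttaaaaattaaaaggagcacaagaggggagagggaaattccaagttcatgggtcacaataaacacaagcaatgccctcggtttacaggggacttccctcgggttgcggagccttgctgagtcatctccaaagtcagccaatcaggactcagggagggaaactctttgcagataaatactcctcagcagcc
Gbp2b: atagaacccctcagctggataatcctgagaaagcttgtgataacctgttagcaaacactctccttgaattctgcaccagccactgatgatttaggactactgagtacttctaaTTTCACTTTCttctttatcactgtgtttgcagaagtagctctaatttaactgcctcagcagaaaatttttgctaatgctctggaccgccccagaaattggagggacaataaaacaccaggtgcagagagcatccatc
Tgtp2: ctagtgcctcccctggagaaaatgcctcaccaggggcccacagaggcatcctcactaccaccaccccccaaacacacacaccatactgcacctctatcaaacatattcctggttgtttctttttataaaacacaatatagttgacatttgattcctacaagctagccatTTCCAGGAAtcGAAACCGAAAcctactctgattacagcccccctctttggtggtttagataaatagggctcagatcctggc
Retnla: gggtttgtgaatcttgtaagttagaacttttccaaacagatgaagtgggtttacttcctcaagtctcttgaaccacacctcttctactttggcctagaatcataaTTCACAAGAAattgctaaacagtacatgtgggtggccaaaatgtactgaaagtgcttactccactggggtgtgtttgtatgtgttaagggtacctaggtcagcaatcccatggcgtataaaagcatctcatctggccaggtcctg
Tmem26: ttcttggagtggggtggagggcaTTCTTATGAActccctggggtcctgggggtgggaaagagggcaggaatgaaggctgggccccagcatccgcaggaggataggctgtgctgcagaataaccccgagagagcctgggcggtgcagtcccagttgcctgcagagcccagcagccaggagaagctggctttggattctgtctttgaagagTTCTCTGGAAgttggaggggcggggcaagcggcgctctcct
The Cxcl10 region held 1 ISRE match, at bases -213 to -204 from the start. Gbp2b also held 1 ISRE match, at -137 to -128. Tgtp2 held a GAS match at -81 to -73 followed, after a gap of a few bases, by an ISRE match at -70 to -61, and its near copy Tgtp1 has the same arrangement, with GAS at -88 to -80 and ISRE at -77 to -68. Retnla held 1 STAT6-type match at -145 to -136, and Tmem26 held a pair, at -227 to -218 and -41 to -32. A match is a description of letters and not of binding. No entry for Arg1 was used.

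Across the start-site table, 2.98% of 32851 regions held an ISRE match, 7.02% a GAS match and 5.85% a STAT6-type match. Over the 10689 regions of compared genes the shares were 2.93% for ISRE, 6.05% for GAS and 4.81% for the STAT6-type site. Regions of genes higher after IFNg held ISRE in 8.39% of 1240, GAS in 7.58% and the STAT6-type site in 5.56%. For genes higher after IL4 the shares were 1.84% for ISRE, 6.58% for GAS and 6.48% for the STAT6-type site, over 1034 regions. The ISRE share thus differed most between the directions, and it was larger among genes further apart: 31.7% of the 82 regions of genes at least 16-fold higher after IFNg held an ISRE match, 19.5% a GAS match and 9.76% a STAT6-type match. Of 12 regions of guanylate-binding proteins and immunity-related GTPases, 10 held ISRE, 6 held GAS and 1 held a STAT6-type match. The STAT6-type share was no larger among genes further towards IL4. For genes at least 4-fold higher after IL4 it was 6.55% of 168 regions, with 4.17% for GAS and 2.98% for ISRE. For genes at least 4-fold higher after IFNg it was 7.11% of 436 regions, with 10.1% for GAS and 13.8% for ISRE. Of 24 regions of alternative activation genes, a list drawn from known targets of IL4, 8 held a STAT6-type match, 2 held GAS and 2 held ISRE. Genes can have several annotated starts, family members are near copies, and matches of different motifs can overlap, so regions are not independent and no test was made.

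The libraries carried the RNA of macrophages. Adgre1, which encodes the surface marker F4/80, had 690.3 FPKM after IFNg, 624 after IL4 and 829.9 untreated, and the CSF1 receptor gene Csf1r had 1539.6 FPKM after IFNg, 1043 after IL4 and 1462 untreated. Both were within 2-fold between the stimuli. Of 10 compared macrophage markers, 2 were higher after IFNg, namely Fcgr1 and Cd14, and 1 after IL4, the lipase gene Lpl. The authors' confidence bounds of IFNg and IL4 overlapped for Cd14 and Lpl. The values rest on unequal depth. The FPKM step of a single read, read off the lowest values, was 2.04 times the untreated step after IFNg and 1.04 times it after IL4. Low genes were therefore measured 1.96 times more coarsely after IFNg than after IL4, and the number of reads is unknown. Fewer cells of a type and less RNA per cell cannot be told apart in such bulk libraries. Genes that overlap cannot be told apart either, since strandedness is not given in the sources used here.

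Of the 12710 genes compared, 1391 (10.9%) were at least 2-fold higher after IFNg and 1211 (9.53%) were at least 2-fold higher after IL4, together 20.5%. The authors' confidence bounds on FPKM, whose level the files do not state, did not overlap for 842 of the genes higher after IFNg (6.62% of all compared) and for 611 of those higher after IL4 (4.81%). A gene or count given below without a remark on bounds can include overlapping ones. The median compared gene differed by -0.07 on the log2 scale. At least 16-fold apart were 110 genes higher after IFNg and 55 higher after IL4, and at least 64-fold apart 39 after IFNg and 33 after IL4. The log2 differences ran from 10.06 down to -12.19, and both ends were held by short RNA genes and a gene segment that were listed at 0 in the lower library. Protein-coding genes were about as even as all genes at 2-fold, and less even from 4-fold upwards. Among 10305 protein-coding genes, 1139 were at least 2-fold higher after IFNg and 1013 after IL4, and 433 were at least 4-fold higher after IFNg and 151 after IL4. At 16-fold the numbers were 82 after IFNg and 14 after IL4, and at 64-fold 17 after IFNg and 3 after IL4.

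**Figure D1:**
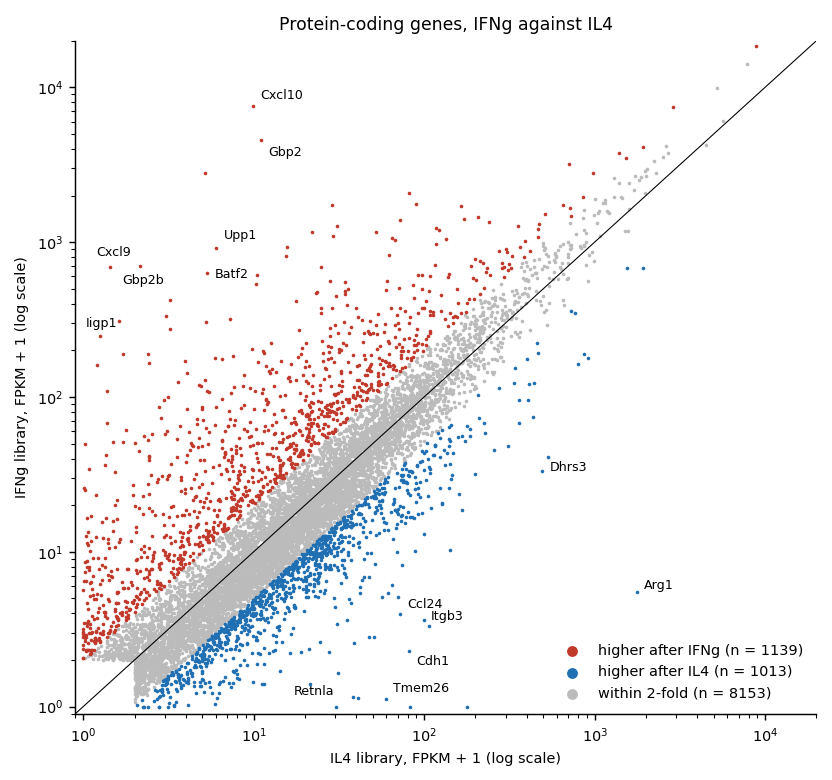
Each point is a protein-coding gene at 1 FPKM or more in either library, with FPKM + 1 after IFNg on the vertical axis and after IL4 on the horizontal axis, both on log scales; the line marks equal values. The 1139 genes higher after IFNg reach far above the line. Of the 15 genes named below as furthest towards IL4, Arg1 has the highest FPKM after IL4.

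Of the 21 pairs that the 7 stimulated libraries form, IFNg and IL4 were furthest apart. They differed at 2602 genes, against 2164 (17.0% of those compared) for IFNg and TGFb1, the next pair, and 230 (1.89%) for MALP2 and CpG, the closest. Depth differs between libraries, and a shallow library adds differences at low genes, so these counts describe the libraries as sequenced. The places of the 2 libraries among the 8 are given as a description, since choosing genes at least 2-fold apart itself raises these shares. Of 1385 genes higher after IFNg with values in all libraries, IFNg was the highest of 8 in 964 (69.6%) and IL4 the lowest of 8 in 711 (51.3%). Of 1201 genes higher after IL4, IL4 was the highest in 785 (65.4%) and IFNg the lowest in 624 (52.0%). Over all 12623 such genes, IFNg was highest in 16.9% and lowest in 22.7%, and IL4 was highest in 18.8% and lowest in 16.7%.

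**Figure D2:**
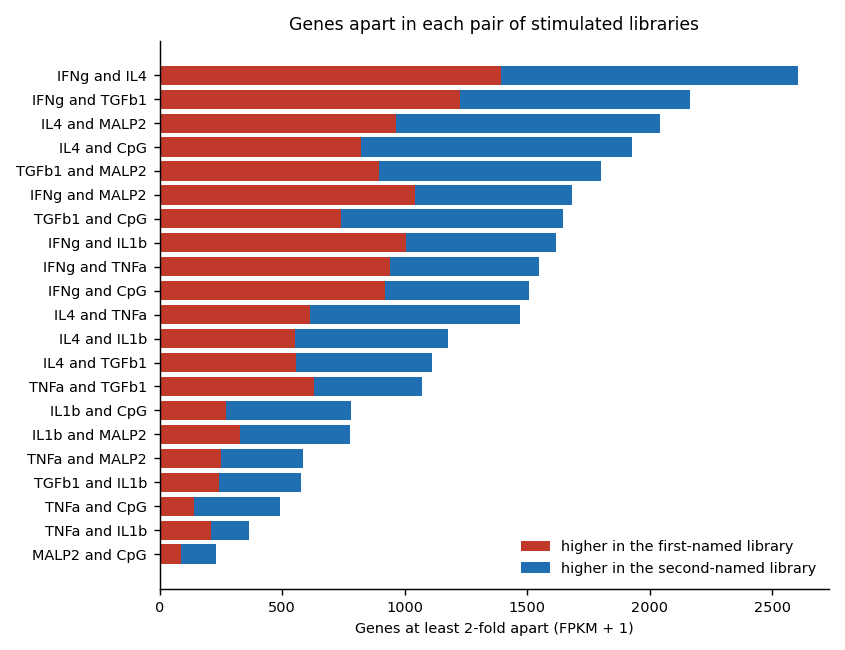
Bars give the number of genes at least 2-fold apart on the FPKM + 1 scale in each of 21 pairs of stimulated libraries, split by the library in which they were higher. The IFNg and IL4 pair is longest, at 2602 genes, and MALP2 and CpG shortest, at 230.

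The 4 genes used to mark the comparison stood at its ends. Cxcl10, which encodes a ligand of Cxcr3, a chemokine receptor of T cells (ENSMUSG00000034855, in the assembled locus chr5:92760852-92843654 of mm9, shared with Cxcl11), had 7573 FPKM after IFNg (bounds 719 to 14428), 8.92 after IL4 (4.25 to 13.6) and 26.9 untreated. Its value was 323 after TNFa, 38.6 after TGFb1, 227 after IL1b, 101 after MALP2 and 194 after CpG. IFNg was thus the highest library and IL4 the lowest, 764-fold apart (log2 9.58). Gbp2b, a GTPase of the guanylate-binding family (chr3:142159863-142185308), had 701 FPKM after IFNg (384 to 1017), 1.15 after IL4 (0.597 to 1.70) and 3.93 untreated, with 1.30 to 44.3 FPKM in the other stimulated libraries. It was again highest after IFNg and lowest after IL4, 327-fold apart.

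Arg1, the arginase that turns arginine into ornithine and urea (chr10:24635013-24647276), had 4.48 FPKM after IFNg (1.23 to 7.72), 1762 after IL4 (569 to 2956) and 0.0342 untreated. It had 4.52 FPKM after TNFa, 8.70 after TGFb1, 4.78 after IL1b, 18.6 after MALP2 and 8.20 after CpG. IL4 stood alone, 322-fold above IFNg, and IFNg lay at the low end of a narrow band that held the other stimuli. Retnla, which encodes a secreted resistin-like protein (chr16:48842664-48844574), had 0.154 FPKM after IFNg (0 to 0.371) and 37.5 after IL4 (14.8 to 60.1), and was listed at 0 in the untreated library and in the 5 others. It was 33.3-fold higher after IL4 than after IFNg, and 1 FPKM was reached only after IL4.

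By size alone, among genes whose authors' bounds did not overlap, the 15 highest after IFNg were Cxcl10, Cxcl9, Gbp2, Gbp2b, Iigp1, Calhm6, Upp1, Gbp4, Tgtp2, Batf2, Tgtp1, Slamf8, Gbp3, Cxcl11 and Serpina3f. They hold 3 chemokine genes for Cxcr3, of which the annotation lists Cxcl11 as a polymorphic pseudogene, and 7 GTPases. The others are a calcium homeostasis modulator (Calhm6), uridine phosphorylase (Upp1), a basic leucine zipper factor (Batf2), a SLAM-family receptor (Slamf8) and a protease inhibitor (Serpina3f). Calhm6 had 309.6 FPKM after IFNg, 0.620 after IL4 and 16.2 untreated, so that it was lower after IL4 than in untreated cells as well. Upp1 had 918 FPKM after IFNg, 5.03 after IL4 and 0.931 untreated, and here IL4 lay above the untreated library. All 15 were highest after IFNg of the 8 libraries. Acod1, the itaconate-making enzyme, was further apart than most of them (log2 9.08), with 2777 FPKM after IFNg and 4.15 after IL4, but the IFNg bounds ran from 0 to 5583.

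The 15 lowest, that is furthest towards IL4, were Arg1, Tmem26, Msx3, Cdh1, Retnla, Tmem273, Gm10337, Itgb3, Il4i1, Ccl24, March3, Map3k12, Tuba8, Plekhf1 and Dhrs3. Tmem26, a transmembrane protein gene, had 0.115 FPKM after IFNg, 58.7 after IL4 and 0.0974 untreated. Msx3, a homeobox gene, had 0.127 FPKM after IFNg, 39.9 after IL4 and 0 untreated, and none of the 5 other stimuli exceeded 0.0933 FPKM. Cdh1, which encodes the adhesion protein E-cadherin, had 1.29 FPKM after IFNg, 80.2 after IL4 and 0.0339 untreated. These 3 genes were below 1 FPKM untreated and stood high in the IL4 library alone. Dhrs3 and Tmem273, by contrast, were also high in untreated cells. Dhrs3, a retinaldehyde reductase, had 32.3 FPKM after IFNg (24.1 to 40.4), 492 after IL4 (385 to 598) and 549.5 untreated, and 76.4 to 154 FPKM in the 5 other stimulated libraries. Tmem273 likewise had 2.30 FPKM after IFNg, 106 after IL4 and 82.3 untreated, against 6.95 to 23.8 in the others. For both, IL4 stayed within 2-fold of the untreated library while every other stimulus was lower. Itgb3, the integrin beta 3 subunit, had 2.62 FPKM after IFNg, 98.4 after IL4 and 4.77 untreated, and Il4i1, a secreted amino acid oxidase, had 0.658 FPKM after IFNg, 30.0 after IL4 and 1.88 untreated. Gm10337 was listed at 0 after IFNg and shares its assembled locus with Map3k12, so its value is uncertain.

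**Figure D3:**
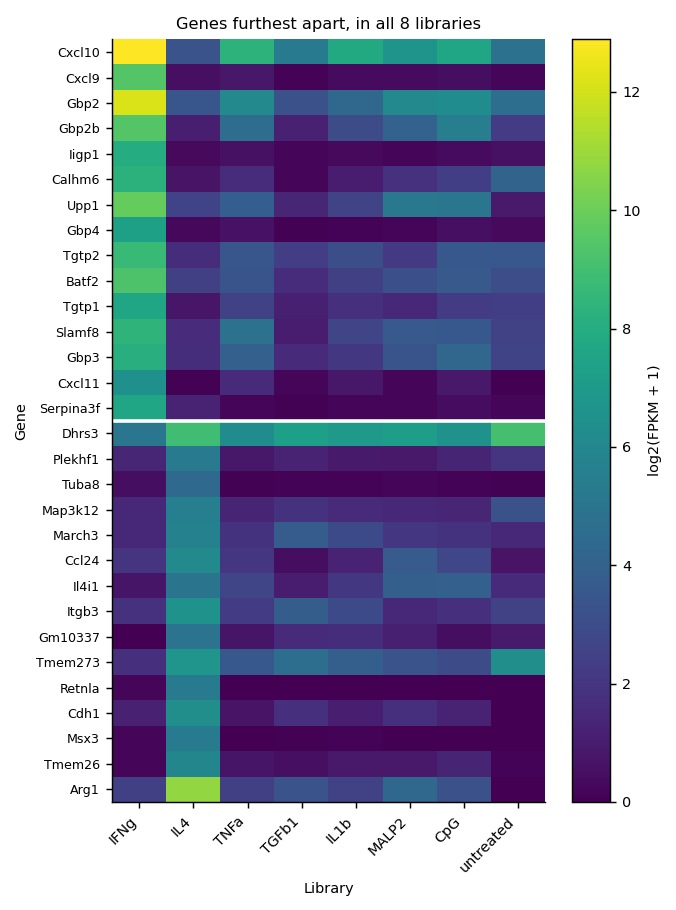
Colour gives log2(FPKM + 1) for the 15 genes furthest towards IFNg (above the white line) and the 15 furthest towards IL4 (below it) in each of the 8 libraries. The upper block is bright in the IFNg column, and the lower block in the IL4 column, except that Dhrs3 and Tmem273 are as bright in the untreated column.

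The lists used for the rest of the comparison are known gene families and pathways, written with earlier results of these data known. They are described by how many members were higher in each library, beside the 10.9% and 9.53% of all genes, and by the median log2 difference of IFNg over IL4, beside -0.07 over all genes. Members below 1 FPKM in both libraries were not compared. Vegfa, Fdft1, Ifi30, Fcgr3, Lyz2, Egr2 and Socs2 lacked the status OK, and Gbp5, Gbp6, Gbp10, Psmb9, Hmgcs1, Noc2l, Bcl2a1a, Ear11, Hbb-b1 and Ahsp were not analysed here.

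**Figure D4:**
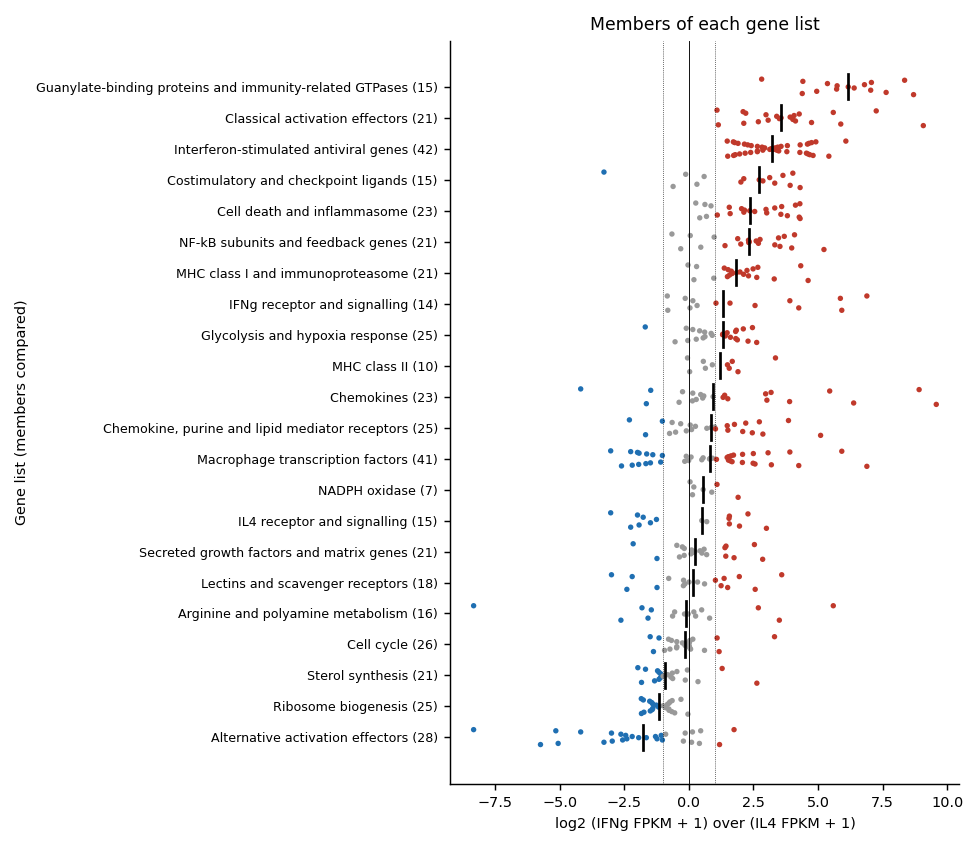
Each point is a compared member of a gene list at its log2 difference of IFNg over IL4 on the FPKM + 1 scale, red where at least 2-fold higher after IFNg and blue where at least 2-fold higher after IL4, with the list's median as a black bar and the number compared in parentheses. Medians run from 6.17 for guanylate-binding proteins and immunity-related GTPases down to -1.79 for alternative activation effectors.

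The genes of the IFNg pathway split by role. The receptor chains and kinases were close in the 2 libraries, and the transcription factors below them were not. Ifngr1 had 46.6 FPKM after IFNg, 83.9 after IL4 and 119 untreated, and Ifngr2 had 135 FPKM after IFNg, 121 after IL4 and 102 untreated. Jak1 had 96.6 FPKM after IFNg, 77.3 after IL4 and 87.6 untreated. None of the 3 passed 2-fold between the stimuli. Jak2 had 28.8 FPKM after IFNg, 51.4 after IL4 and 4.12 untreated, with overlapping bounds between IFNg and IL4. The other stimuli gave 9.90 to 43.8 FPKM for Jak2, so every stimulated library lay above untreated cells. Stat2 had 122 FPKM after IFNg, 19.7 after IL4 and 75.3 untreated. It was highest after IFNg and lowest after IL4 of all 8 libraries. Irf1 had 1745 FPKM after IFNg, 27.8 after IL4 and 80.1 untreated (log2 5.92). Irf8, a factor of the myeloid lineage, had 1383 FPKM after IFNg, 71.5 after IL4 and 163 untreated. Batf2 had 633 FPKM after IFNg, 4.35 after IL4 and 7.14 untreated. In all, 8 of 14 members were higher after IFNg and none after IL4 (median 1.32).

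Of the feedback inhibitors of the pathway, Socs1 and Socs3 were higher after IFNg and Ptpn2 was within 2-fold. Socs1 had 275 FPKM after IFNg (95.2 to 454), 90.3 after IL4 (38.2 to 142) and 0.861 untreated. It was far above untreated cells after both cytokines, while the 5 other stimuli gave 0.957 to 22.4 FPKM, and the IFNg and IL4 bounds overlapped. Socs3 had 303 FPKM after IFNg, 4.22 after IL4 and 8.91 untreated, and another stimulated library reached 781 FPKM. The phosphatase gene Ptpn2 had 14.1 FPKM after IFNg, 15.7 after IL4 and 5.40 untreated.

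The genes of IL4 signalling fell on both sides, with 6 of 15 higher after IFNg and 7 higher after IL4 (median 0.50). Receptor chains and kinases made up most of the first set. Il4ra had 896 FPKM after IFNg (526 to 1266), 302 after IL4 (198 to 405) and 106 untreated. Il2rg, the common gamma chain, had 337 FPKM after IFNg, 68.2 after IL4 and 129 untreated, and Il13ra1 had 29.2 FPKM after IFNg, 2.76 after IL4 and 3.32 untreated. All 3 chains of the IL4 receptors were therefore higher after IFNg than after IL4. Jak3 had 20.9 FPKM after IFNg, 6.44 after IL4 and 12.1 untreated. The first set also held Ptpn6 (239 FPKM after IFNg, 80.0 after IL4 and 251 untreated, with overlapping bounds). Kdm6b was in it as well, with 18.6 FPKM after IFNg, 4.03 after IL4 and 2.03 untreated. Stat6 itself had 113 FPKM after IFNg, 79.4 after IL4 and 156 untreated, and Tyk2 had 22.2 FPKM after IFNg, 13.3 after IL4 and 29.3 untreated, neither 2-fold apart.

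Transcription factors made up most of the set higher after IL4, which also held Cish and Irs2. Irf4, which is required for many IL4 responses of macrophages, had 0.402 FPKM after IFNg, 10.4 after IL4 and 1.73 untreated, and 0.236 to 0.432 FPKM after the 5 other stimuli. Myc had 24.8 FPKM after IFNg (17.1 to 32.5), 122 after IL4 (90.4 to 154) and 3.41 untreated. Myc was above untreated cells in all 7 stimulated libraries, lowest of them after IFNg and highest after IL4. Klf4 had 3.42 FPKM after IFNg, 16.5 after IL4 and 4.98 untreated. Cish, a feedback inhibitor, had 29.9 FPKM after IFNg, 72.7 after IL4 and 0.977 untreated. Pparg, the nuclear receptor, had 4.50 FPKM after IFNg, 14.4 after IL4 and 32.0 untreated, so it was highest in untreated cells.

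**Figure D5:**
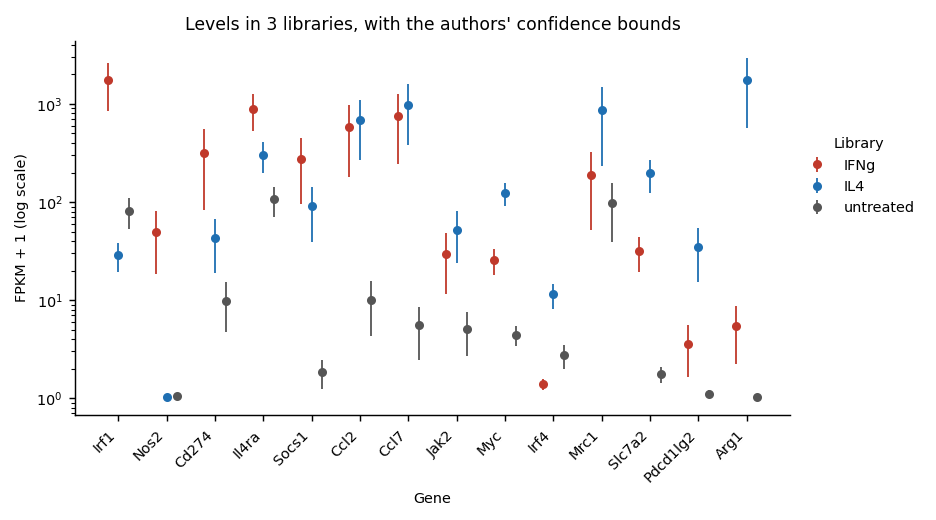
Points give FPKM + 1 on a log scale for 14 genes in the IFNg, IL4 and untreated libraries, with the authors' confidence bounds as bars. The bounds of IFNg and IL4 lie apart for Irf1, Myc and Arg1 and overlap for Socs1, Ccl2, Ccl7 and Jak2, which lie above untreated in both. Jak2 was above untreated in the other stimulated libraries too, which are not shown.

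All 15 compared guanylate-binding proteins and immunity-related GTPases, which attack the vacuoles of intracellular microbes, were higher after IFNg, with bounds apart for each and a median of 6.17. Gbp2 had 4565 FPKM after IFNg (602 to 8528), 9.99 after IL4 and 24.2 untreated. Iigp1 had 248 FPKM after IFNg, 0.253 after IL4 and 0.520 untreated, and no other library exceeded 0.520. The smallest difference of the family was that of Gbp8, at 6.67 FPKM after IFNg, 0.0869 after IL4 and 0.565 untreated. IFNg was the highest of 8 libraries for all 15 and IL4 the lowest for 7. Relative to untreated cells, 8 of 15 were at least 2-fold lower after IL4 (median -1.12), where 11.7% of all genes were, and all 15 were higher after IFNg (median 5.2), where 10.8% of all genes were. Summed over the list, the level was 10271 FPKM after IFNg, 94.4 after IL4 and 289 untreated. Members are near copies that can share reads, so their separate values are uncertain.

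Of the classical activation effectors, 21 of 21 compared were higher after IFNg (median 3.57), 18 with bounds apart. Nos2, the inducible nitric oxide synthase, had 48.6 FPKM after IFNg (17.5 to 79.8), 0.0300 after IL4 and 0.0539 untreated. Tnf had 611 FPKM after IFNg, 9.39 after IL4 and 7.11 untreated, and Il27, a cytokine subunit, had 35.1 FPKM after IFNg, 0.342 after IL4 and 0.377 untreated. Casp4, the sensor of cytosolic lipopolysaccharide known as caspase 11, had 63.8 FPKM after IFNg, 2.71 after IL4 and 12 untreated. Fcgr1, the high-affinity IgG receptor, had 1229.9 FPKM after IFNg, 116 after IL4 and 319 untreated. IFNg was the highest of 8 libraries for 13 of the 21, and the rest had a higher value elsewhere. Il1b is an example, with 57.0 FPKM after IFNg, 2.0 after IL4 and 3.93 untreated, while the 5 other stimuli ranged from 1.08 to 3128. Il12b reached 1.30 FPKM after IFNg and 0.0408 after IL4, against up to 59.8 after another stimulus, and Il6 (0.706 FPKM after IFNg and 0.0342 after IL4) stayed below 1 FPKM in both. Ido1, also below 1 FPKM, had 0.243 FPKM after IFNg and was listed at 0 after IL4. IL4 was the lowest library for 12 of 21.

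Cell death and inflammasome genes showed the same direction, with 18 of 23 higher after IFNg and none after IL4 (median 2.36). Tnfsf10, the death ligand TRAIL, had 22.4 FPKM after IFNg, 0.183 after IL4 and 1.14 untreated. Mlkl, the pore-forming protein of necroptosis, had 151 FPKM after IFNg, 11.8 after IL4 and 17.2 untreated. Nlrp3 had 328 FPKM after IFNg, 39.8 after IL4 and 35.4 untreated, and Casp1 had 64.4 FPKM after IFNg, 11.8 after IL4 and 19.3 untreated. The antagonists were also in this set. Il1rn, which blocks the interleukin 1 receptor, had 1758 FPKM after IFNg, 88.4 after IL4 and 24.4 untreated, and Il18bp, which binds interleukin 18, had 62.0 FPKM after IFNg, 4.22 after IL4 and 9.53 untreated.

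All 42 interferon-stimulated antiviral genes were higher after IFNg than after IL4, 38 with bounds apart, with a median of 3.23. The range ran from 1.49 for Bst2, the tether of budding virus, to 6.08 for Oasl1, an oligoadenylate synthetase-like gene. Oasl1 had 164 FPKM after IFNg, 1.45 after IL4 and 17.2 untreated. Ifit2 had 169 FPKM after IFNg, 2.97 after IL4 and 30.3 untreated, and Mx1, an antiviral GTPase, had 178 FPKM after IFNg, 4.93 after IL4 and 18.5 untreated. The difference had a part on each side of the untreated library. After IFNg 32 of 42 were at least 2-fold above untreated cells (median 1.46), where 10.8% of all genes were. After IL4 33 of 42 were at least 2-fold below untreated cells (median -1.61), where 11.7% of all genes were. IL4 was the lowest of 8 libraries for 31 of 42, and IFNg the highest for 41. For some genes IFNg was within 2-fold of untreated cells and IL4 was lower. Ifi27l2a had 864 FPKM after IFNg, 304 after IL4 and 905 untreated, and Ddx58, the RNA sensor RIG-I, had 72.6 FPKM after IFNg, 14.2 after IL4 and 60.8 untreated.

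Among the alternative activation effectors, 19 of 28 compared were higher after IL4, 14 of them with bounds apart, and 2 were higher after IFNg (median -1.79). The list had been drawn from known targets of IL4, and Arg1, Retnla, Cdh1, Tmem26 and Ccl24 led it. Mrc1, the mannose receptor, had 188 FPKM after IFNg (50.5 to 326), 865 after IL4 (232 to 1498) and 95.8 untreated, with overlapping bounds. Cd36, a scavenger receptor for lipids, had 67.2 FPKM after IFNg, 359 after IL4 and 18.3 untreated. Mgl2, a galactose-type lectin, had 3.69 FPKM after IFNg, 36.3 after IL4 and 2.60 untreated. Flt1, a VEGF receptor, had 16.8 FPKM after IFNg, 95.6 after IL4 and 0.281 untreated. Ptgs1, the constitutive cyclooxygenase, had 4.38 FPKM after IFNg, 41.0 after IL4 and 9.01 untreated. IL4 was the highest of 8 libraries for 20 of the 28.

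Several members of the same list were also above untreated cells after IFNg, and 14 of 28 were at least 2-fold above them, where 10.8% of all genes were. After IL4 22 of 28 were, where 9.84% of all genes were. The 2 comparisons share the untreated library. Slc7a2, an arginine transporter, had 30.9 FPKM after IFNg (18.4 to 43.4), 196 after IL4 (124 to 269) and 0.767 untreated. Clec7a, the beta-glucan receptor Dectin-1, had 128 FPKM after IFNg, 302 after IL4 and 21.9 untreated, and 12 to 34.2 after the 5 other stimuli. Tgm2, a transglutaminase widely used as a marker of IL4, went the other way, with 3484 FPKM after IFNg, 1528 after IL4 and 53.0 untreated, and 653 to 1336 after the other stimuli. Mmp13, a collagenase, had 163 FPKM after IFNg, 47.8 after IL4 and 1.57 untreated. The bounds of IFNg and IL4 overlapped for Clec7a, for Tgm2 and for Mmp13. The macrophage lectin Clec10a hardly differed, with 62.2 FPKM after IFNg, 72.2 after IL4 and 57.5 untreated, but 7.71 to 10.4 FPKM after the 5 others. Chil3, a chitinase-like secreted protein, had 16 FPKM after IFNg, 34.7 after IL4 and 10.0 untreated, a 2.10-fold difference with overlapping bounds.

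Of 23 compared chemokine genes, 11 were higher after IFNg, 3 were higher after IL4 and 9 were within 2-fold (median 0.94). The Cxcr3 ligands stood high after IFNg. Cxcl9 had 693 FPKM after IFNg, 0.439 after IL4 and 0.136 untreated, and no other stimulus exceeded 0.778. Cxcl11 had 87.7 FPKM after IFNg, 0.0656 after IL4 and 0.0316 untreated. Ccl5, which attracts T cells, had 318 FPKM after IFNg, 6.29 after IL4 and 23.2 untreated, and Ccl12, a ligand of Ccr2, had 1048 FPKM after IFNg, 133 after IL4 and 7.57 untreated. In contrast, Ccl24, a ligand of the eosinophil receptor Ccr3, had 2.97 FPKM after IFNg, 71.3 after IL4 and 0.604 untreated. Ccl17, a ligand of Ccr4, was listed at 0 after IFNg and untreated and had 2.13 FPKM after IL4. It was higher than that after TNFa (2.72 FPKM), MALP2 (4.73) and CpG (6.27). The platelet factor gene Pf4 had 27.3 FPKM after IFNg, 77.7 after IL4 and 45.8 untreated, with overlapping bounds.

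The monocyte attractants Ccl2 and Ccl7, both ligands of Ccr2, were high after both cytokines and close between them. Ccl2 had 579 FPKM after IFNg (181 to 976), 685 after IL4 (265 to 1106) and 9.07 untreated, and the other 5 stimuli gave 49.7 to 199 FPKM. Ccl7 had 757 FPKM after IFNg, 984 after IL4 and 4.52 untreated, against 25.2 to 162 after the others. IFNg and IL4 were thus the 2 highest libraries for both genes, with overlapping bounds. For Ccl3 and Ccl4, the macrophage inflammatory proteins, the pair stood low in the series. Ccl4 had 216 FPKM after IFNg, 85.6 after IL4 and 112 untreated, and Ccl3 had 65.5 FPKM after IFNg, 43.5 after IL4 and 134 untreated, while another stimulus reached 2876 FPKM for Ccl4 and 2569 for Ccl3.

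Of the chemokine, purine and lipid mediator receptors, 11 of 25 were higher after IFNg and 3 after IL4 (median 0.86). Hcar2, the niacin receptor, had 59.7 FPKM after IFNg, 0.771 after IL4 and 1.62 untreated. Ptafr, the receptor of platelet-activating factor, had 105 FPKM after IFNg, 6.32 after IL4 and 185 untreated, so the difference lay in a low IL4 value. Gpr84, a receptor for medium-chain fatty acids, had 221 FPKM after IFNg, 32.5 after IL4 and 3.93 untreated. Ccr3, the receptor that Ccl24 binds, had 0.621 FPKM after IFNg, 6.98 after IL4 and 0.178 untreated, and the prostaglandin receptor gene Ptger2 had 1.46 FPKM after IFNg, 6.87 after IL4 and 2.64 untreated. The leukotriene B4 receptor gene Ltb4r1 was above untreated cells after both, at 32.6 FPKM after IFNg, 8.88 after IL4 and 0.905 untreated, and at 0.365 to 0.746 after the 5 other stimuli.

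Genes of MHC class I presentation and the immunoproteasome were higher after IFNg in 17 of 21 members, 9 of them with bounds apart, and after IL4 in none (median 1.84). Nlrc5, the transactivator of class I genes, had 127 FPKM after IFNg, 4.21 after IL4 and 19.4 untreated. Tap1, a subunit of the peptide transporter, had 562 FPKM after IFNg, 26.9 after IL4 and 82.1 untreated. The class I heavy chain gene H2-K1 had 1528 FPKM after IFNg, 512 after IL4 and 1040.2 untreated, and B2m, the light chain, had 7412 FPKM after IFNg, 2863 after IL4 and 5234 untreated. For these abundant chains the bounds overlapped, and IFNg stood less than 2-fold above untreated cells. After IL4 11 of 21 members were at least 2-fold below untreated cells, where 11.7% of all genes were. The chaperone genes Calr (937 FPKM after IFNg and 817 after IL4) and Pdia3 (315 FPKM after IFNg and 323 after IL4) were close. The heavy chain genes are similar in sequence and can share reads.

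For MHC class II, 5 of 10 members were higher after IFNg and none after IL4 (median 1.20). Bounds were apart for 4 of the 5 and overlapped for H2-Ab1. Ciita, the class II transactivator, had 21.9 FPKM after IFNg (13.6 to 30.1), 1.24 after IL4 and 3.09 untreated. Cd74, the invariant chain, had 500.0 FPKM after IFNg, 155 after IL4 and 201 untreated. H2-Ab1 had 118 FPKM after IFNg, 30.7 after IL4 and 43.8 untreated, and H2-Aa had 162 FPKM after IFNg, 54.3 after IL4 and 73.9 untreated. The transactivator thus differed more (log2 3.35) than its target chains (1.5 to 1.90) at 4 h. No member was 2-fold above untreated cells after IL4, where 9.84% of all genes were.

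Costimulatory and checkpoint ligands were higher after IFNg in 10 of 15 members and after IL4 in 1 (median 2.72), and the 2 ligands of the checkpoint receptor PD-1 stood on opposite sides. Cd274, which encodes PD-L1, had 315 FPKM after IFNg (81.1 to 549), 42.3 after IL4 (17.8 to 66.8) and 8.91 untreated. Pdcd1lg2, which encodes PD-L2, had 2.60 FPKM after IFNg (0.662 to 4.53), 34.1 after IL4 (14.3 to 53.8) and 0.110 untreated, with at most 0.0656 after the 5 other stimuli. Both ligands were above untreated cells after both cytokines. Cd40, the receptor of the T cell ligand CD154, had 1057 FPKM after IFNg, 64 after IL4 and 14.9 untreated. Icam1, an adhesion ligand, had 1025 FPKM after IFNg, 66.7 after IL4 and 55.5 untreated. Cd86 had 142 FPKM after IFNg, 31.7 after IL4 and 4.43 untreated with overlapping bounds, while its relative Cd80 had 4.69 FPKM after IFNg, 5.19 after IL4 and 2.58 untreated.

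NF-kB subunits and feedback genes were higher after IFNg in 16 of 21 members, all 16 with bounds apart, and after IL4 in none (median 2.34). Tnfaip2 had 1098 FPKM after IFNg, 28.3 after IL4 and 241 untreated. Nfkbia, the inhibitor of NF-kB, had 345 FPKM after IFNg, 52.5 after IL4 and 53.4 untreated, and Tnfaip3, the ubiquitin-editing inhibitor A20, had 189 FPKM after IFNg, 17.9 after IL4 and 6.64 untreated. Sod2, the mitochondrial superoxide dismutase, had 223 FPKM after IFNg, 19.2 after IL4 and 18.4 untreated. IFNg was the highest of 8 libraries for 4 of the 21 members, so most were higher after another stimulus, and IL4 was the lowest for 13. The subunits Nfkb1 (217 FPKM after IFNg, 269.8 after IL4 and 70.4 untreated) and Rel (10.5 FPKM after IFNg, 7.34 after IL4 and 4.77 untreated) did not pass 2-fold. Ripk2, a kinase below the NOD receptors, had 25.7 FPKM after IFNg, 41.0 after IL4 and 5.77 untreated.

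Of 41 transcription factors, 19 were higher after IFNg and 13 after IL4 (median 0.82), a larger share on the IL4 side than the 9.53% of all genes. Bounds were apart for 16 of those 19 and for 6 of those 13. Beside Irf1, Irf8, Stat2 and Batf2, the IFNg side held Irf7 (557 FPKM after IFNg, 59.9 after IL4 and 234 untreated) and Irf5 (588 FPKM after IFNg, 192 after IL4 and 152 untreated), both interferon regulatory factors. Stat3 had 289.8 FPKM after IFNg, 50.9 after IL4 and 112 untreated. The IL4 side held several basic leucine zipper and helix-loop-helix factors. Bhlhe40 had 19.8 FPKM after IFNg, 125 after IL4 and 22.9 untreated, and Fosl2, an AP-1 subunit, had 14.1 FPKM after IFNg, 68.1 after IL4 and 8.01 untreated. Tfec, a factor of the Mitf family, had 17.1 FPKM after IFNg, 68.5 after IL4 and 15.9 untreated, and its relative Mitf had 223 FPKM after IFNg, 456 after IL4 and 458 untreated. Batf3 had 8.46 FPKM after IFNg, 35.0 after IL4 and 2.38 untreated, and at most 0.465 after the 5 other stimuli. Its IFNg and IL4 bounds overlapped. The lineage factor Spi1, known as PU.1, had 881 FPKM after IFNg, 419 after IL4 and 516 untreated.

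Arginine metabolism separated the libraries at its branch point, where Nos2 and Arg1 stood on opposite sides. The nitric oxide side held Nos2, the synthase, Ass1, which rebuilds arginine from citrulline (26.2 FPKM after IFNg, 1.40 after IL4 and 1.49 untreated) and Gch1, which makes the cofactor of the synthase (32.4 FPKM after IFNg, 4.17 after IL4 and 7.87 untreated), all 3 higher after IFNg. The arginase side had Arg1, above, and the polyamine genes Srm (28.1 FPKM after IFNg, 101 after IL4 and 12.8 untreated) and Amd1 (5.95 FPKM after IFNg, 19.8 after IL4 and 5.90 untreated). Srm was also above untreated cells after the other stimuli, at 47.0 to 77.3 FPKM. The bounds of IFNg and IL4 overlapped for Amd1. Slc7a2, above, encodes a transporter of arginine and not an enzyme of either side. It was also higher after IL4, and had 8.79 to 89.7 FPKM after the other stimuli. Odc1, the first enzyme from ornithine to polyamines, did not separate them, with 30.7 FPKM after IFNg, 25.5 after IL4 and 3.03 untreated. Of 16 members, 3 were higher after IFNg and 5 after IL4 (median -0.10).

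Glycolysis and hypoxia response genes were higher after IFNg in 13 of 25 members and after IL4 in 1 (median 1.31). Hk3, a hexokinase of myeloid cells, had 709 FPKM after IFNg, 114 after IL4 and 141 untreated. Slc2a1, the glucose transporter GLUT1, had 301 FPKM after IFNg, 69.0 after IL4 and 17.2 untreated, so that IL4 also stood above untreated cells. The other stimuli gave 93.7 to 498 FPKM, so IL4 was the lowest stimulated library for Slc2a1. Hif1a had 74.5 FPKM after IFNg, 26.0 after IL4 and 12.5 untreated. The exception was Pfkfb4, an isoform of the enzyme that sets the level of a glycolytic activator, with 19.3 FPKM after IFNg, 64.5 after IL4 and 33.1 untreated. Ldha (811 FPKM after IFNg, 531 after IL4 and 389.6 untreated) and Gapdh (72.9 FPKM after IFNg, 39.6 after IL4 and 41.2 untreated) did not pass 2-fold.

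Ribosome biogenesis and sterol synthesis leaned towards IL4. All 25 compared ribosome biogenesis genes had a log2 difference below 0, 13 were at least 2-fold higher after IL4, 5 of them with bounds apart, and none was higher after IFNg (median -1.16). Ncl, which encodes nucleolin, had 17.7 FPKM after IFNg, 66.1 after IL4 and 15.4 untreated, and Nolc1 had 31.4 FPKM after IFNg, 107 after IL4 and 14.3 untreated. Nop56, a core protein of box C/D small nucleolar ribonucleoproteins, had 72.6 FPKM after IFNg, 209 after IL4 and 32.5 untreated. IL4 was the highest of 8 libraries for 22 of 25. Against untreated cells 23 of 25 were higher after IL4 (median 2.04), where 9.84% of all genes were. After IFNg 10 of 25 were (median 0.81), where 10.8% of all genes were. In the sterol pathway 9 of 21 were higher after IL4, 5 of them with bounds apart, and 2 after IFNg (median -0.93). Mvd had 4.12 FPKM after IFNg, 19.1 after IL4 and 33.2 untreated, and Dhcr7 had 5.57 FPKM after IFNg, 22.4 after IL4 and 33.6 untreated, both lowest after IFNg. IFNg was the lowest of 8 libraries for 12 of the 21. Ch25h, whose product hydroxycholesterol lowers sterol synthesis, went the other way, with 531 FPKM after IFNg, 84.8 after IL4 and 3.23 untreated.

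Cell cycle genes were close, with 3 of 26 higher in each direction (median -0.13), and most were low in both. With a floor of 5 FPKM the median was -0.67. After IFNg 14 of 26 were at least 2-fold below untreated cells (median -1.16), where 12.8% of all genes were. After IL4 7 of 26 were (median -0.67), where 11.7% of all genes were. Ccnd2, which encodes cyclin D2, had 111 FPKM after IFNg, 10.3 after IL4 and 2.98 untreated. Ccnd1 had 501 FPKM after IFNg, 222 after IL4 and 12.4 untreated, with overlapping bounds between IFNg and IL4. Cdk1 had 9.51 FPKM after IFNg, 28.6 after IL4 and 26.2 untreated. Pcna, the sliding clamp of DNA replication, had 217 FPKM after IFNg, 101 after IL4 and 88.2 untreated, with overlapping bounds. The mitotic kinase gene Aurkb was within 2-fold between the cytokines and below untreated cells in both, and had 1.90 FPKM after IFNg, 2.21 after IL4 and 10.1 untreated. Mcm2, a subunit of the replicative helicase, had 3.0 FPKM after IFNg, 9.33 after IL4 and 8.06 untreated, with overlapping bounds.

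Of 18 lectins and scavenger receptors, 7 were higher after IFNg and 4 after IL4 (median 0.17), with lectins and scavenger receptors on both sides. Bounds were apart for 4 of the 7 and for 2 of the 4. Those higher after IL4 were Mrc1, Clec7a, Cd36 and Mgl2, described above. Those higher after IFNg included Clec4e, the sensor Mincle, with 114 FPKM after IFNg, 8.51 after IL4 and 22.5 untreated, and Clec4n, which encodes Dectin-2, with 374 FPKM after IFNg, 96.0 after IL4 and 102 untreated. Olr1, a receptor for oxidised lipoprotein, had 16.4 FPKM after IFNg, 1.94 after IL4 and 0.0341 untreated. All other stimuli gave more Olr1 than IFNg did, at 19.8 to 61.1 FPKM. Of 7 NADPH oxidase subunits, 2 were higher after IFNg, both with overlapping bounds, and none after IL4 (median 0.56). Ncf1 had 346 FPKM after IFNg, 91.6 after IL4 and 272 untreated, and Cybb had 347 FPKM after IFNg, 163 after IL4 and 400.3 untreated, so IFNg was within 2-fold of untreated cells for both. Among secreted growth factors and matrix genes 6 of 21 were higher after IFNg and 2 after IL4 (median 0.24). Bounds were apart for 3 of the 6 and 1 of the 2, and overlapped for Hbegf. Pdgfb had 67.5 FPKM after IFNg, 8.45 after IL4 and 6.24 untreated, while Hbegf, a ligand of the EGF receptor, had 9.65 FPKM after IFNg, 24.0 after IL4 and 0.597 untreated and was high after these 2 cytokines alone, since the 5 others gave 1.16 to 2.01 FPKM. Edn1, which encodes endothelin 1, had 0.864 FPKM after IFNg, 7.30 after IL4 and 0.0673 untreated. It was higher still after MALP2 (9.31 FPKM) and CpG (23.9).

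Markers of other cells also differed between the libraries. All 13 compared stromal markers had a log2 difference above 0, 3 of them at least 2-fold (median 0.84), and the list summed to 236 FPKM after IFNg, 114 after IL4 and 109.7 untreated. No compared member was at 0. Col1a2, a collagen chain, had 49.1 FPKM after IFNg, 22.9 after IL4 and 23.1 untreated. IFNg was the highest of 8 libraries for 11 of the 13. Of 14 compared neutrophil markers, 7 were higher after IFNg, 2 of them with bounds apart, and none after IL4 (median 0.97). The list summed to 469 FPKM after IFNg, 198 after IL4 and 319 untreated. Retnlg was listed at 0 after IL4. S100a8 had 197 FPKM after IFNg, 71.7 after IL4 and 119 untreated, with overlapping bounds between IFNg and IL4. Their part in the differences above was not tested. The T cell receptor gene Cd3d was listed at 0 in the IFNg, IL4 and untreated libraries, as was Ifng itself, and the T and NK cell list summed to 29.1 FPKM after IFNg, 16 after IL4 and 42.4 untreated. Of 4 compared T and NK cell markers 2 were higher after IFNg, namely Lck (11.2 FPKM after IFNg, 0.634 after IL4 and 0.904 untreated) and Klrk1 (4.67 FPKM after IFNg, listed at 0 after IL4 and 0.109 untreated), and 1 was higher after IL4, Cd28. The B cell list summed to 40.5 FPKM after IFNg, 72.4 after IL4 and 240.4 untreated. Its genes Cd79a and Pax5 stayed below 0.1 FPKM in all 3 libraries, and of 4 compared B cell markers only Blnk, higher after IL4, passed 2-fold. Of the erythroid list only the transferrin receptor gene Tfrc reached 1 FPKM, with 4.07 FPKM after IFNg, 22.9 after IL4 and 2.74 untreated. Of 10 dendritic cell markers, 7 were below 1 FPKM in both libraries and 3 were compared. These 3 were higher after IFNg, and 1 of them, Bst2, is also in the antiviral list. Clec9a had 1.92 FPKM after IFNg, 0.0289 after IL4 and 0.137 untreated. Kmo had 2.33 FPKM after IFNg, 0.453 after IL4 and 4.93 untreated, so it was highest in untreated cells. The mast cell and eosinophil list had 2 compared members, Siglecf higher after IFNg and Ccr3 higher after IL4.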

How the data were processed

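Poly(A) RNA-seq of 8 mouse macrophage libraries was used, 1 per group. Per the submitters' processing notes, TopHat 1.3.1, Cufflinks 1.2.1, Cuffdiff 1.2.1 and the mm9 build are named; their options, the read numbers and any strand setting are not given in the sources used. The authors deposited 1 table of gene FPKM per stimulus, which per the file headers pairs that library with the untreated one and gives a low and a high bound for each value. They also deposited, per the file headers, Cuffdiff tables with p-values, q-values and a yes or no call against untreated cells, which gave no value reported here. Absolute depth is unknown.

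The untreated columns of the 7 tables were proportional (largest deviation of a gene 0.000628%). Each table was divided by its factor, 0.946 for IFNg and 1.04 for IL4. Genes needed the status OK and 1 FPKM in either library, and the difference was log2 of (IFNg FPKM + 1) over (IL4 FPKM + 1), counted at 1 or more in size. With 1 library per group no test was made and no p-value computed. GENCODE gave a symbol for 31840 of the 36806 gene identifiers. The genes named were the 4 markers, the 15 furthest apart in each direction with at least 5 FPKM and bounds apart, up to 4 counted members per list and direction, and receptors, kinases and STAT factors. Further list members are named as examples chosen after their values were seen. A few genes of the lists are counted but not reported singly. Members and lists were chosen with earlier results of these data known. The counting was checked on simulated data with equal noise in both libraries and no sampling of reads. That check did not cover low genes measured at unequal depth. Alternatives were pseudocounts of 0.1 and 5, a floor of 5 FPKM or none, centring, no joining factor, each table's own untreated values, bounds apart and protein-coding genes alone. The software was matplotlib 3.10.9, pandas 2.3.3, numpy 2.4.6 and Python 3.11.15.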

Additional observations from a re-analysis of the deposited data

How the results depend on the processing

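With 1 library per group no spread between replicates is known, and no library could be left out. No paired analysis was possible because each group holds 1 library. The count of genes higher after IL4 was 538 with a pseudocount of 5, against 1211 as reported, and genes whose bounds were apart numbered 842 higher after IFNg and 611 higher after IL4. The share of the counted genes that were higher after IFNg was 53.5% as reported, 63.4% with a pseudocount of 5 (931 and 538 genes), 48.4% with a pseudocount of 0.1 (1632 and 1737) and 44.5% with no joining factor (1216 and 1517). The last moves the median gene to -0.192, against -0.0659 as reported. The median of the T and NK cell markers was -0.0058 with no floor, against 1.34 over the 4 members compared, because that setting adds members near 0. It was also smaller with a floor of 5 FPKM (0.17) and with a pseudocount of 5 (0.54). Some other list medians crossed the 2-fold mark. That of MHC class II was 0.78 with no floor (1.20 as reported), that of ribosome biogenesis -0.94 with a pseudocount of 5 (-1.16 as reported), and that of dendritic cell markers 0.46 with either (1.49 as reported). With a pseudocount of 5 the medians of chemokines (0.54), stromal markers (0.39) and neutrophil markers (0.38) were smaller by over 1.5 times. That of arginine and polyamine metabolism was 0.44 over members with bounds apart and -0.10 as reported. Of 152 named genes, 14 no longer passed 2-fold with a pseudocount of 5, 5 with no joining factor, 2 after centring and 1 with each table's own untreated values, and none changed direction under the alternatives run. Low values are coarsest after IFNg, the library with the largest FPKM step per read.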

Other observations

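Short RNA genes were among those furthest apart, with no bounds apart. Of 78 compared small nucleolar RNA genes, 20 were higher after IFNg and 46 after IL4. They were listed at 0 after IFNg in 44 cases and after IL4 in 13, and the authors' bounds were apart for 0 of those called. Of 31 microRNA genes, 12 were higher after IFNg and 11 after IL4, listed at 0 after IFNg in 11 cases and after IL4 in 6. Over all genes, 51 of the 1391 higher after IFNg were listed at 0 after IL4, and 102 of the 1211 higher after IL4 were listed at 0 after IFNg. For these no fold is given. The protein-coding genes described above had values in both libraries except where a 0 is stated.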
